A study of Mus musculus with 6 samples.

Results

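The 10 genes described here act in the synthesis, storage or export of liver triglyceride: Gpam, Agpat2, Lpin1, Lpin2, Dgat1, Dgat2, Mogat1, Mttp, Tm6sf2 and Pnpla3. They were taken by symbol from the series-wide count table, and all 10 were found among its 56674 rows. Of the 10, 9 passed the filter on low counts and were among the 18284 genes tested, and Pnpla3 did not pass it. By GENCODE M21, they lie on chromosome 19 (Gpam), chromosome 2 (Agpat2), chromosome 12 (Lpin1), chromosome 17 (Lpin2), chromosome 15 (Dgat1), chromosome 7 (Dgat2), chromosome 1 (Mogat1), chromosome 3 (Mttp), chromosome 8 (Tm6sf2) and chromosome 15 (Pnpla3). Hepatocytes build triglyceride by adding fatty acids one after another to glycerol 3-phosphate. Glycerol 3-phosphate acyltransferase makes lysophosphatidate, an AGPAT enzyme makes phosphatidate, a lipin removes the phosphate to give diacylglycerol, and a DGAT enzyme adds the last fatty acid. The product is stored in lipid droplets or is transferred onto apolipoprotein B in the endoplasmic reticulum and secreted as very low density lipoprotein (VLDL).

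Liver RNA came from male C57BL/6 mice, an inbred laboratory strain, aged 71 weeks. One group ate chow containing polypropylene microplastic (PP-MP, 3 libraries) and the other ate normal chow (control, 3 libraries). The series was designed to assess what prolonged eating of this plastic does to transcript levels in the liver. In the treatment protocol, all 6 samples carry the term PS-MP, while the titles and the treatment characteristic separate PP-MP from normal chow and were used for grouping. How much plastic was eaten, of what size and for how long was not among the labels used here. Nothing states that each replicate is its own mouse, so a p-value covers only the spread between samples, part of which may be technical.

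Total counts were 81073738 to 100252360 in PP-MP libraries and 68357478 to 112566641 in control libraries. All 8 hepatocyte markers, among them Alb and Ttr, were detected, with summed levels of 65980 to 77076 CPM (read counts scaled to the same total in every library, with TMM factors) in PP-MP and 59054 to 70953 CPM in control. The first principal component, with 38.1% of the variance, separated the PP-MP libraries from the control libraries. PP-MP 1 (−75.4) and control 1 (75.9) were at its ends. Control 2 stood apart from the other libraries on the second principal component and held 11.2% of its counts on the 18S ribosomal RNA gene Rn18s-rs5, against 0.655% to 0.750% in PP-MP and 1.15% and 2.92% in the other two controls. All 8 macrophage and Kupffer cell markers were detected, and their sum was 566, 331 and 151 CPM in PP-MP 1, 2 and 3, against 111 to 147 CPM in control. All 8 neutrophil markers were detected in PP-MP, where their sum was 26.2, 5.22 and 3.16 CPM, against 1.34 to 1.86 CPM in control, where Ly6g and Camp were at 0 counts. Within PP-MP, Camp was found only in PP-MP 1 (0.574 CPM), and Ly6g was at 0 CPM in PP-MP 3. Both sums were higher in every PP-MP library, and highest in PP-MP 1. Taken singly, Timd4 and Marco were higher in every PP-MP library and the other 6 macrophage markers overlapped, and of the neutrophil markers S100a8 and S100a9 were higher in every one and the other 6 overlapped. The part of these cells in the values below was not tested. In whole tissue, fewer cells of a type and less RNA per cell cannot be told apart.

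None of the 9 tested genes was called different between the diets, and only 2 of all 18284 genes tested were. With edgeR's quasi-likelihood test, 0 of the 9 passed an adjusted p of 0.05, where 0.0109% of all tested genes did so (0.00547% higher and 0.00547% lower), and the adjusted p of the 9 ran from 0.37 (Mogat1) to 0.83 (Lpin2). At an unadjusted p of 0.05 the count was also 0, against 13.9% of all tested genes (8.05% higher and 5.81% lower), and DESeq2 called 0, against 4.25%. The unadjusted count was 3 without control 2, and 3 without control 2 and PP-MP 1 together (Agpat2, Dgat2 and Mogat1 in both). It was 2 without PP-MP 2 (Gpam and Mogat1), 1 with DESeq2 (Mogat1), and 1 without control 1 or with library totals (Tm6sf2 in both). The share of all tested genes at that p was not taken under these settings, so these counts have no background beside them. In 0 of the 9 was every PP-MP library above every control library, as it was for 12.2% of all tested genes, and in 0 was every PP-MP library below, as it was for 9.78%. Fitted values were below 0 for 7 of the 9, where 47.4% of all tested genes were below 0, with a median log2 fold change of −0.27 beside 0.03 over all tested genes. When libraries were scaled by their totals alone, 5 of the 9 were below 0 and the median was −0.05, while the median over all genes moved by 0.23 to 0.26. The members' median also depended on single libraries. It was −0.06 with 5 below 0 without PP-MP 1, and −0.13 with 5 below 0 without control 1. Without control 2 it was −0.37 and without PP-MP 2 −0.31, each with 7 below 0. Without control 2, every PP-MP library was lower for 4 members (Agpat2, Dgat2, Mogat1 and Mttp), as it was for 20.1% of all genes then tested. The lowest adjusted p of the 9 was then 0.165 (Dgat2) by edgeR, which called 92 genes in all. Without PP-MP 2, Gpam, Mogat1 and Mttp were lower in every PP-MP library (13.8% of all genes) and Lpin1 and Tm6sf2 higher (16.6%), and again 0 passed.

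The precision differed widely within the list. Intervals (95%) that stayed inside 2-fold either way, a log2 of 1, were found for Agpat2, Dgat1, Mttp and Tm6sf2, which is 4 of 9, where 46.3% of all tested genes met this. The intervals of Gpam, Lpin1, Lpin2, Dgat2 and Mogat1 reached further. The spread between libraries of the same group, as the SD of log2 CPM, was 1.38 for Mogat1, 1.04 for Lpin1, 0.69 for Gpam and 0.64 for Lpin2. The median over the 12659 tested genes with a mean of at least 1 CPM was 0.27, and 97.2% of these genes had a smaller spread than Mogat1 and 94.5% a smaller one than Lpin1. For Gpam and Lpin2 these shares were 87.3% and 85.5%. The other 5 members lay between 0.21 (Tm6sf2) and 0.32 (Dgat2), near that median.

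**Figure D1:**
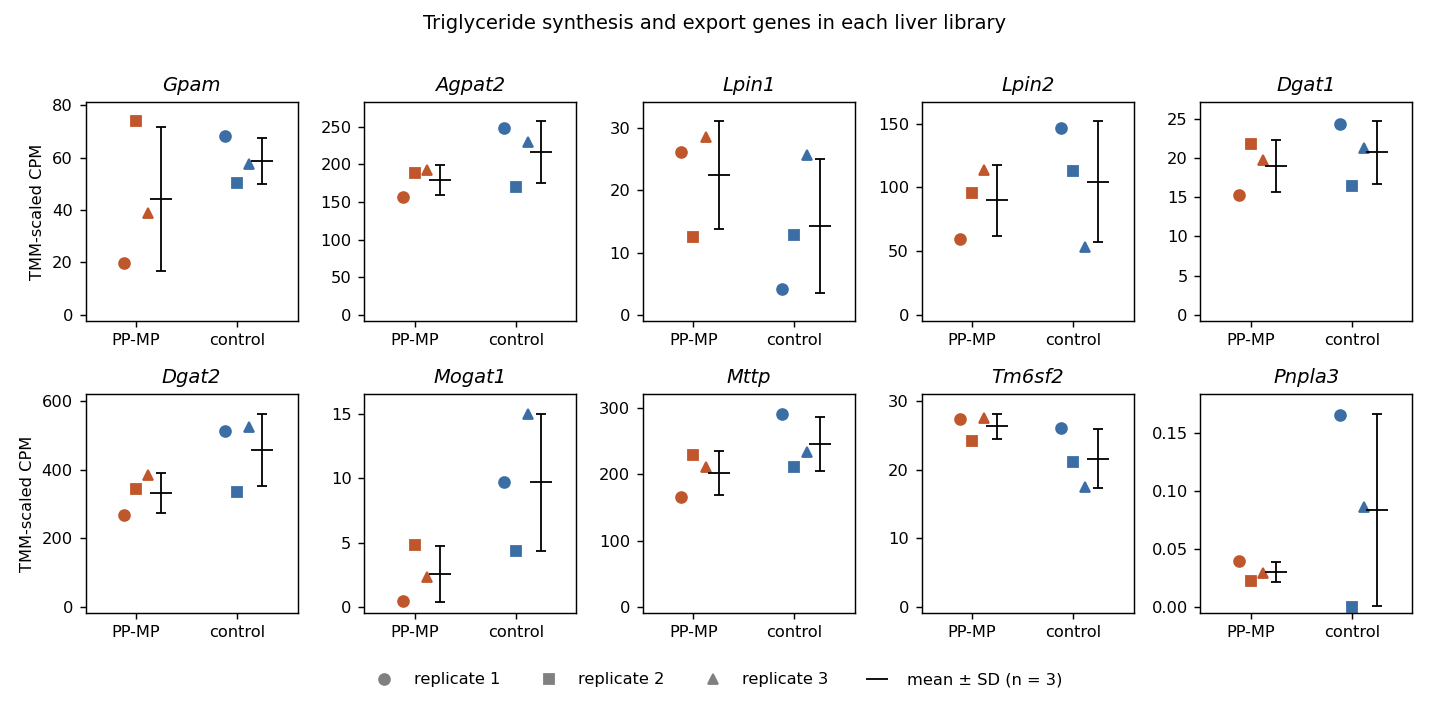
TMM-scaled CPM of the 10 genes in each liver library, with PP-MP libraries in orange and control libraries in blue, 1 symbol per replicate number, and the mean ± SD of each group (n = 3) as black bars. The groups overlap in all 10 panels, and among the 9 tested genes the points of Lpin1, Lpin2, Gpam and Mogat1 are the most scattered relative to their level.

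**Figure D2:**
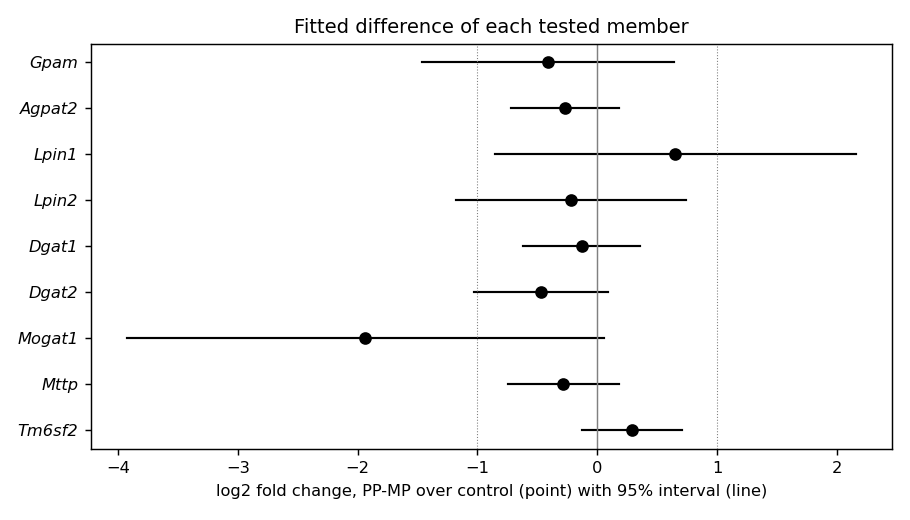
Log2 fold change of the 9 tested genes, PP-MP over control (points), with 95% intervals from edgeR (lines) and dotted lines at 1 on either side of 0. All 9 intervals include 0, and that of Mogat1 is the widest of them, −3.92 to 0.05.

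The first acylation step was scattered in PP-MP and even in control. Gpam, the glycerol 3-phosphate acyltransferase of the mitochondrial outer membrane, was at 19.9, 73.8 and 39.0 CPM in PP-MP 1, 2 and 3, against 68.1, 50.4 and 57.7 CPM in control 1, 2 and 3. PP-MP 2 was the highest of all 6 libraries and PP-MP 1 the lowest, so the groups overlapped at both ends. The log2 fold change was −0.41 (SE 0.44, edgeR adjusted p = 0.70), and it was −0.9956 without PP-MP 2, −0.06 without PP-MP 1, −0.15 without control 2 and PP-MP 1 together and −0.17 with library totals. Agpat2, which makes phosphatidate and whose loss causes lipodystrophy in mice and humans, was at 156, 188 and 193 CPM in PP-MP, against 248, 170 and 229 CPM in control. All PP-MP libraries lay below control 1 and 3, and control 2 lay among them (log2 fold change −0.27, SE 0.19, edgeR adjusted p = 0.55). The value was −0.15 without control 1 and −0.05 with library totals.

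Other enzymes of these steps gave 0 calls in either direction. The list held 13 genes, all tested: Gpat2 to Gpat4, Agpat1 and Agpat3 to Agpat5, Lclat1, Lpin3, Mogat2 and the lipid phosphate phosphatases Plpp1 to Plpp3. Of these, 7 had a fitted value above 0 and 6 below, the median log2 fold change was 0.02 beside 0.03 over all genes, and 0 had an unadjusted p under 0.05. Over all tested genes, 47.4% had a fitted value below 0. Such a p was found for 8.05% of them higher and 5.81% lower. Agpat3, another acyltransferase that forms phosphatidate, was at 211, 234 and 163 CPM in PP-MP, against 291, 220 and 257 CPM in control (log2 fold change −0.34, SE 0.19). Gpat4, the glycerol 3-phosphate acyltransferase of the endoplasmic reticulum, was at 124, 226 and 207 CPM in PP-MP, against 267, 214 and 230 CPM in control (log2 fold change −0.35, SE 0.25). In PP-MP 1 both Gpam and Gpat4 had their lowest value of the 6 libraries. This was not particular to the first acylation step. PP-MP 1 was also the lowest library for Agpat2, Dgat1, Dgat2, Mogat1 and Mttp, though not for Lpin1, Lpin2 or Tm6sf2. Agpat4 was below 1 CPM in all 6 libraries.

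The lipins convert phosphatidate to diacylglycerol, and they also act in the nucleus as partners of transcription factors. Hepatic Lpin1 is known in mice for strong induction by fasting and glucocorticoids and for a daily rhythm. Lpin1 was at 26.2, 12.5 and 28.5 CPM in PP-MP, against 4.19, 12.9 and 25.6 CPM in control. The spread within control, 6.12-fold from control 1 to control 3, exceeded the 1.57-fold fitted difference between the diets (log2 fold change 0.65, SE 0.63, edgeR adjusted p = 0.66). Leaving out control 1 gave 0.23 and leaving out control 3 gave 1.42. Lpin2, the lipin that predominates in mouse liver, was at 59.5, 96.0 and 114 CPM in PP-MP, against 147, 113 and 53.3 CPM in control. Control 1, lowest for Lpin1, was highest for Lpin2, and control 3 was lowest for Lpin2. The log2 fold change of Lpin2 was −0.22 (SE 0.40, edgeR adjusted p = 0.83), and it changed sign with library totals and without PP-MP 1, without control 1, and without control 2 and PP-MP 1 together. It ran from −0.52 without control 3 to 0.12 without control 1.

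The number of Lpin1 counts per Lpin2 count, which does not depend on library scaling, was 0.441, 0.130 and 0.250 in PP-MP, against 0.0286, 0.114 and 0.481 in control. Control libraries therefore held both the lowest and the highest ratio of the 6. The mean log2 ratio was −2.04 ± 0.88 in PP-MP and −3.11 ± 2.04 in control (SD, n = 3 each), a difference of 1.07. The exact permutation test gave p = 0.5, two-sided, and p = 0.67 when adjusted over the 4 ratios tested. The difference was 0.06 without control 1 and 2.09 without control 3. Time of day and feeding state at collection were not among the labels used here.

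Sequence upstream of the start sites is shown for this pair because the 2 lipins were at opposite ends of their ranges in control 1. The 250 bases before the start were available for 7 of the 10 genes, at 10 starts, from RefSeq on GRCm38.p6, an older build than the GRCm39 named for the counts. Capitals mark matches to any of 5 motifs searched on both strands. Lpin1 is shown for chr12:16610967-16611216, minus strand, and Lpin2 for the first of its 3 starts, chr17:71183282-71183531, plus strand.
Lpin1: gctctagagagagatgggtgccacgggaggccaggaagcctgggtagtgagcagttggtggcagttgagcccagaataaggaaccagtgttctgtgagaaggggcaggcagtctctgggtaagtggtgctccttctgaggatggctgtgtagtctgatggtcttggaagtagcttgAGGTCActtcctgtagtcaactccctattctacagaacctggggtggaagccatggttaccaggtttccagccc
Lpin2: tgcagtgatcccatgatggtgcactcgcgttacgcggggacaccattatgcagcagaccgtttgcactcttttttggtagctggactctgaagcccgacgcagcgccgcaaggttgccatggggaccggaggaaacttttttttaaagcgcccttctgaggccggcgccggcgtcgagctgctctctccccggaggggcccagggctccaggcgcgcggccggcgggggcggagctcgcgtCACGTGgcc
The motifs were the E-box CACGTG, the cyclic AMP response element TGACGTCA, the SREBP element TCACNCCAC, the nuclear receptor half-site AGGTCA, and the PPAR direct repeat DR1, which is 2 such half-sites with 1 base between them. In Lpin1 the capitals mark a half-site that begins 74 bases before the start, and 14.0% of all 32851 promoters in the table hold one in the same window. In Lpin2 they mark an E-box that begins 9 bases before the start, held by 6.02% of promoters. The other motifs were held by 1.55% (cyclic AMP response element), 1.05% (SREBP element) and 0.0335% (DR1). The bases after this Lpin2 start were in no GENCODE M21 transcript of the gene, and the other 2 starts of Lpin2 matched none of the motifs. A match is a description of these letters and not a measured site.

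The last step of synthesis had the most abundant gene of the list. Dgat2, the diacylglycerol acyltransferase that mainly uses newly made fatty acids, was at 267, 343 and 383 CPM in PP-MP, against 512, 335 and 524 CPM in control. PP-MP libraries were all below control 1 and 3, while control 2 lay among them. The log2 fold change was −0.47 (SE 0.24, 95% interval −1.03 to 0.09, edgeR adjusted p = 0.43), the second smallest p of the 9 after Mogat1. It was −0.25 with library totals. Dgat1, the unrelated enzyme that mainly re-esterifies incoming fatty acids, was at 15.3, 21.8 and 19.8 CPM in PP-MP, against 24.3, 16.5 and 21.3 CPM in control. Its log2 fold change was −0.13 (SE 0.21, 95% interval −0.62 to 0.36, edgeR adjusted p = 0.80), and it changed sign with library totals, without PP-MP 1 and without control 1. It was −0.25 without control 2 and −0.24 without PP-MP 2.

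Within each library there were fewer Dgat2 counts per Dgat1 count in PP-MP. The ratio was 17.5, 15.7 and 19.4 in PP-MP 1, 2 and 3, against 21.1, 20.4 and 24.6 in control 1, 2 and 3, so the groups did not overlap. The mean log2 ratio was 4.13 ± 0.15 in PP-MP and 4.46 ± 0.15 in control (SD, n = 3 each), a difference of −0.33. An exact permutation test gave p = 0.1, two-sided, which is the smallest that 3 against 3 can give, and p = 0.2 when adjusted over the 4 ratios. The difference ran from −0.40 to −0.25 when each library was left out.

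**Figure D3:**
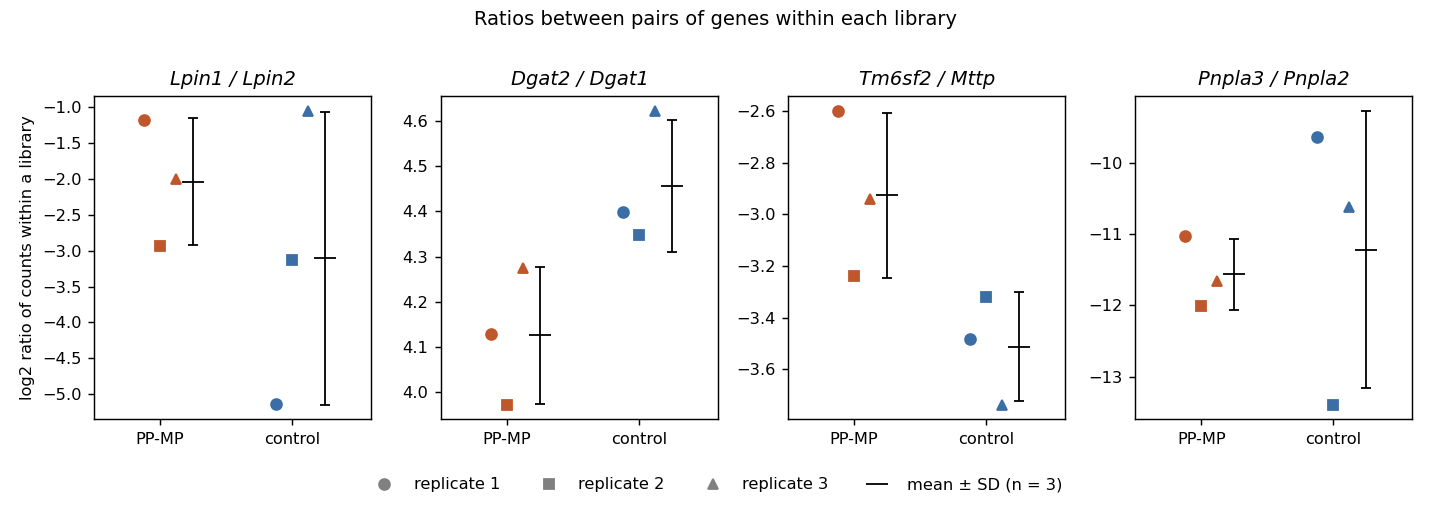
Log2 ratio of counts within each library for 4 pairs of genes, with PP-MP libraries in orange, control libraries in blue, 1 symbol per replicate number and the mean ± SD (n = 3) as black bars. For Dgat2 / Dgat1 the PP-MP libraries sit below every control library and for Tm6sf2 / Mttp above every one, while the groups overlap for Lpin1 / Lpin2 and Pnpla3 / Pnpla2.

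Mogat1 had the widest range of the 9 tested members and the lowest p. It encodes a monoacylglycerol acyltransferase, an enzyme that makes diacylglycerol without passing through phosphatidate, and in mouse liver it is known as a target of PPAR-gamma that is induced in fatty liver. Mogat1 was at 0.446, 4.82 and 2.36 CPM in PP-MP 1, 2 and 3, from 45, 439 and 244 counts, against 9.70, 4.36 and 15.0 CPM in control, from 704, 263 and 1572 counts. PP-MP 2 was above control 2, so the groups overlapped, and within PP-MP the highest library was 10.8-fold above the lowest. The log2 fold change was −1.93 (SE 0.83, edgeR unadjusted p = 0.055, adjusted p = 0.37, DESeq2 adjusted p = 0.12). It was −1.44 without PP-MP 1 and −2.79 without PP-MP 2. Mogat1 shares 12.8% of its exonic bases with BC035947 on the opposite strand, which had 0 to 39 counts in PP-MP and 10 to 23 in control. The strand setting of the counting was not stated, so Mogat1 counts are uncertain to that extent.

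The bases before the Mogat1 start are shown because its values differed most between libraries, for chr1:78510810-78511059, plus strand, on GRCm38.p6.
Mogat1: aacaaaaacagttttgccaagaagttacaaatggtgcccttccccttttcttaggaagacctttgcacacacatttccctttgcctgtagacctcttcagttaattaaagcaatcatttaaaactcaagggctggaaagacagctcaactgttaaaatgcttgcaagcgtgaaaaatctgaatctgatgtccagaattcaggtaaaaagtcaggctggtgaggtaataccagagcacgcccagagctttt
None of the 5 motifs occurred in this window, so no letter is in capitals. This says only that these letters are absent from these 250 bases.

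The 6 libraries stood in the same order for Mogat1 and for Pparg, the gene of PPAR-gamma, and for Cfd, a gene of the adipocyte list. Both were singled out after their values were seen. From high to low the order was control 3, control 1, PP-MP 2, control 2, PP-MP 3 and PP-MP 1. Pparg was at 7.11, 12.4 and 9.67 CPM in PP-MP 1, 2 and 3, against 15.9, 12.3 and 18.3 CPM in control (log2 fold change −0.67, SE 0.25, edgeR adjusted p = 0.33). Cfd, which encodes complement factor D, was at 0.139, 5.88 and 0.193 CPM in PP-MP, against 8.75, 2.21 and 12.04 CPM in control. Cidea, a lipid droplet protein of the same list, was also picked after its values were seen. It had this order but for control 1 and 3 exchanged, at 0.238, 28.9 and 1.16 CPM in PP-MP against 81.4, 13.4 and 65.7 CPM in control. The share of genes this near to the order was not taken, and Adipoq, Plin1 and Retn of that list did not have the order. Among all other tested genes, 103 (0.563%) had exactly the order of Mogat1, and so did 5 of the 153 other tested genes on the lists used here (Gpd1, Lpcat3, Pcyt1a, Pparg and Cfd).

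Cidea and Cfd made up nearly all of the adipocyte marker list, and the other 6 genes were low. Of its 8 genes 7 were detected, and the summed level ran from 0.376 to 35.1 CPM in PP-MP and from 16.1 to 90.7 CPM in control. Lep was at 0 counts in all 6 libraries, Plin1 was at 0 except for 0.0549 CPM in PP-MP 2, and Adipoq was at most 0.0483 CPM in PP-MP and 0.0191 CPM in control. Aqp7 was at most 0.132 CPM in PP-MP and 0.162 CPM in control, and Slc2a4 at most 0.0658 CPM in PP-MP and 0.110 CPM in control. Retn, which encodes the adipokine resistin, was lower in every PP-MP library, at 0, 0.0768 and 0 CPM against 0.248, 0.182 and 0.335 CPM in control (edgeR unadjusted p = 0.029, adjusted p = 0.32).

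**Figure D4:**
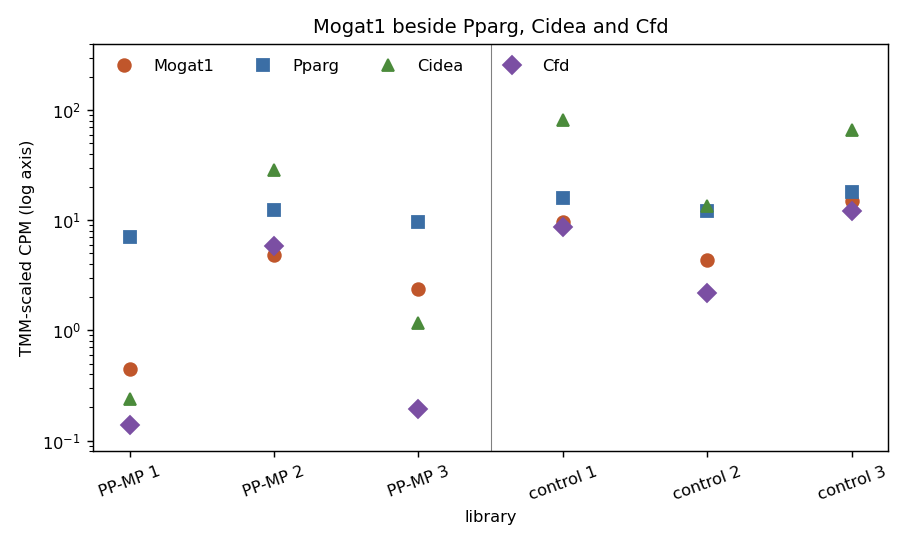
TMM-scaled CPM (log axis) of Mogat1, Pparg, Cidea and Cfd in each library, PP-MP on the left and control on the right. All 4 genes are lowest in PP-MP 1, and PP-MP 2 lies above control 2 for each of them.

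The 2 export genes had fitted differences in opposite directions. Mttp encodes the large subunit of the microsomal triglyceride transfer protein, which loads lipid onto apolipoprotein B. It was at 166, 229 and 211 CPM in PP-MP, against 291, 211 and 234 CPM in control, and PP-MP 2 lay above control 2 (log2 fold change −0.28, SE 0.19, edgeR adjusted p = 0.54). The value was −0.13 without control 1, −0.16 without PP-MP 1 and −0.06 with library totals. Mttp shares exonic bases on the opposite strand with Trmt10a (7.36% of its exonic length) and with Gm43691 (2.13%), and Trmt10a had 315 to 380 counts in PP-MP and 164 to 314 in control, beside at least 12740 for Mttp. Tm6sf2 encodes a membrane protein of the endoplasmic reticulum that takes part in lipid loading of VLDL and is linked to human fatty liver. It was at 27.3, 24.2 and 27.5 CPM in PP-MP, against 26.1, 21.2 and 17.5 CPM in control. PP-MP libraries were close together, and control 1 lay above PP-MP 2 (log2 fold change 0.29, SE 0.18, 95% interval −0.13 to 0.70, edgeR adjusted p = 0.50). The value was 0.46 without control 1, 0.18 without control 3 and 0.51 with library totals.

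Tm6sf2 counts per Mttp count were 0.165, 0.106 and 0.130 in PP-MP 1, 2 and 3, against 0.0896, 0.1003 and 0.0750 in control. Every PP-MP library was above every control library, with PP-MP 2 and control 2 nearest to each other. The mean log2 ratio was −2.93 ± 0.32 in PP-MP and −3.51 ± 0.21 in control (SD, n = 3 each), a difference of 0.59, with an exact permutation p = 0.1, two-sided, again the smallest possible, and p = 0.2 adjusted over the 4 ratios. It ran from 0.42 to 0.74 when each library was left out.

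The partners of Mttp and the machinery of VLDL secretion gave 0 calls in either direction. Of 20 genes, all tested, 9 had a fitted value above 0 and 11 below, the median log2 fold change was −0.02, and 3 had an unadjusted p under 0.05 (2 higher, 1 lower). Among all tested genes 47.4% were below 0, and 8.05% were higher and 5.81% lower at that p. Apob, the protein scaffold of VLDL, was at 5065, 4303 and 4207 CPM in PP-MP, against 1644, 5123 and 3721 CPM in control. Control 1 alone was far below the rest, and control 2 was the highest (log2 fold change 0.37, SE 0.40, edgeR adjusted p = 0.69). P4hb, the small subunit of the transfer protein and itself protein disulfide isomerase, was at 789, 1044 and 910 CPM in PP-MP, against 1248, 909 and 1123 CPM in control (log2 fold change −0.26, SE 0.20). Apobec1, which edits Apob mRNA, had 15.0, 9.32 and 8.20 CPM in PP-MP, against 5.67, 8.47 and 4.78 CPM in control (log2 fold change 0.78, SE 0.32, edgeR adjusted p = 0.35). Sec24c, a coat subunit of vesicles that leave the endoplasmic reticulum, had 50.2, 63.1 and 23.2 CPM in PP-MP, against 27.3, 21.3 and 20.3 CPM in control (log2 fold change 0.99, SE 0.36, edgeR adjusted p = 0.32). Vmp1, which acts in the release of lipoproteins into the lumen of the endoplasmic reticulum, was lower in every PP-MP library, at 67.6, 57.2 and 62.5 CPM against 79.6, 79.8 and 76.8 CPM in control (log2 fold change −0.33, SE 0.12, edgeR adjusted p = 0.33). Sec24d and Erlin2 were also lower in every one, which makes 3 of the 20 genes, and 0 were higher in every one. Among all tested genes these shares were 9.78% and 12.2%.

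Pnpla3, a lipid droplet protein with triglyceride hydrolase activity that is linked to human fatty liver, was close to absent. It had 4, 2 and 3 counts in PP-MP 1, 2 and 3, against 12, 0 and 9 counts in control 1, 2 and 3. These are 0.0396, 0.0219 and 0.0290 CPM in PP-MP, against 0.165, 0 and 0.0860 CPM in control. The control libraries lay on both sides of the PP-MP ones, and the 0 of control 2 allows up to 0.0497 CPM (3 counts, counting error only). It did not pass the filter on low counts and was not tested. The log2 ratio of its counts to those of Pnpla2, which encodes the main triglyceride lipase of lipid droplets, was −11.0, −12.0 and −11.7 in PP-MP 1, 2 and 3, against −9.65, −13.4 and −10.6 in control 1, 2 and 3. The value of control 2 comes from 0 counts plus the 0.5 added to every count, so the mean difference of −0.35 (exact permutation p = 0.8, two-sided, adjusted p = 0.8) rests on that added count. It was −1.43 without control 2 and 0.44 without control 1.

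The list for triglyceride and lipid droplet hydrolysis also gave 0 calls with edgeR. It mixes enzymes with proteins that regulate them, such as Hilpda and G0s2, so its counts and median give no direction of hydrolysis. Of 15 tested genes 4 had a fitted value above 0 and 11 below, with a median log2 fold change of −0.23, and 3 had an unadjusted p under 0.05, all lower. Among all tested genes 47.4% were below 0, and 8.05% were higher and 5.81% lower at that p. Every PP-MP library was lower than every control library for 5 of them (Lipa, Ces1d, Ces1e, Ces1f and Ces1g) and higher for 1 (Hilpda), beside 9.78% lower and 12.2% higher of all tested genes. Pnpla2 was at 93.5, 113 and 109 CPM in PP-MP, against 138, 89.1 and 143 CPM in control (log2 fold change −0.23, SE 0.21). Ces1d, a carboxylesterase that hydrolyses stored triglyceride for VLDL assembly in mice, was at 193, 634 and 555 CPM in PP-MP, against 1140, 840 and 947 CPM in control (log2 fold change −1.08, SE 0.43, edgeR adjusted p = 0.35). Ces1g, a related esterase, was at 78.0, 170 and 143 CPM in PP-MP, against 317, 209 and 351 CPM in control (log2 fold change −1.16, SE 0.33, edgeR adjusted p = 0.25), and DESeq2 called it lower (adjusted p = 0.030). Lipa, the acid lipase of lysosomes, was at 180, 232 and 185 CPM in PP-MP, against 343, 256 and 295 CPM in control (log2 fold change −0.58, SE 0.18, edgeR adjusted p = 0.28). The Ces1 genes are close copies of one another, so the split of reads among these copies, and with it each value, is uncertain.

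The lists for the supply of glycerol 3-phosphate and for the competing phospholipid branch gave 0 calls as well. The supply list held Gpd1, Gpd2, Gk, Aqp9, Agk and Gpd1l, not all of which make glycerol 3-phosphate. Of its 6 genes, all tested, 1 had a fitted value above 0 and 5 below (median log2 fold change −0.31), and 1 had an unadjusted p under 0.05. The shares to set beside both lists are those of all tested genes. There 47.4% were below 0, and 8.05% were higher and 5.81% lower at that p. Gpd1, which makes glycerol 3-phosphate from a glycolytic intermediate, was at 255, 616 and 507 CPM in PP-MP, against 668, 519 and 710 CPM in control (log2 fold change −0.46, SE 0.33). Gk, glycerol kinase, was at 123, 187 and 190 CPM in PP-MP, against 87.7, 149 and 117 CPM in control (log2 fold change 0.50, SE 0.26, edgeR adjusted p = 0.44). Gpd1l, a relative of Gpd1, was lower in every PP-MP library, at 22.0, 27.2 and 30.8 CPM against 36.9, 31.8 and 35.9 CPM in control (log2 fold change −0.39, SE 0.16, edgeR adjusted p = 0.36). Of the 13 tested phospholipid genes (Pcyt1b, the 14th on the list, was too low to be tested) 4 had a fitted value above 0 and 9 below, with a median of −0.29, and 2 had an unadjusted p under 0.05, both lower. These were Selenoi, the ethanolamine phosphotransferase (log2 fold change −0.42, SE 0.18), and Pisd, the mitochondrial phosphatidylserine decarboxylase (−0.67, SE 0.26), with edgeR adjusted p of 0.36 and 0.35. Pcyt1a, which sets the pace of phosphatidylcholine synthesis, was at 58.8, 74.2 and 68.5 CPM in PP-MP, against 91.3, 72.6 and 95.7 CPM in control. Every PP-MP library was lower than every control library for 4 of the 13 (Cds2, Cept1, Selenoi and Pisd) and higher for 0. Among all tested genes these shares were 9.78% and 12.2%.

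Transcriptional regulators known to act on these genes, with coactivators and the SREBP-processing proteins Insig1, Insig2 and Scap, were the last list, with 18 of 18 genes tested and 0 called by edgeR. Of these, 6 had a fitted value above 0 and 12 below (median log2 fold change −0.15), and 2 had an unadjusted p under 0.05, Mlxipl higher and Pparg lower. Among all tested genes 47.4% were below 0, and 8.05% were higher and 5.81% lower at that p. Srebf1, the gene of the insulin-responsive lipogenic factor, was at 19.8, 21.5 and 22.8 CPM in PP-MP, against 33.4, 24.97 and 16.3 CPM in control (log2 fold change −0.22, SE 0.26, edgeR adjusted p = 0.72). Mlxipl, which encodes the carbohydrate-responsive factor ChREBP, was at 87.1, 78.5 and 96.95 CPM in PP-MP, against 60.9, 57.5 and 50.8 CPM in control, without overlap (log2 fold change 0.63, SE 0.14, edgeR adjusted p = 0.21), and DESeq2 called it higher (adjusted p = 0.012). Of the 18, 1 (Mlxipl) was higher in every PP-MP library and 1 (Scap) lower, beside 12.2% and 9.78% of all tested genes. Insig2, a retention factor of SREBP processing, was at 47.7, 19.98 and 52.4 CPM in PP-MP, against 72.3, 49.6 and 87.3 CPM in control (log2 fold change −0.80, SE 0.39). Over all 6 lists, 85 of 86 genes were tested, with a median log2 fold change of −0.13. DESeq2 called 2 of the 85 (Ces1g and Mlxipl), against 4.25% of all tested genes. Every PP-MP library was higher than every control library for 2 of the 85 and lower for 14, beside 12.2% and 9.78% of all tested genes.

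**Figure D5:**
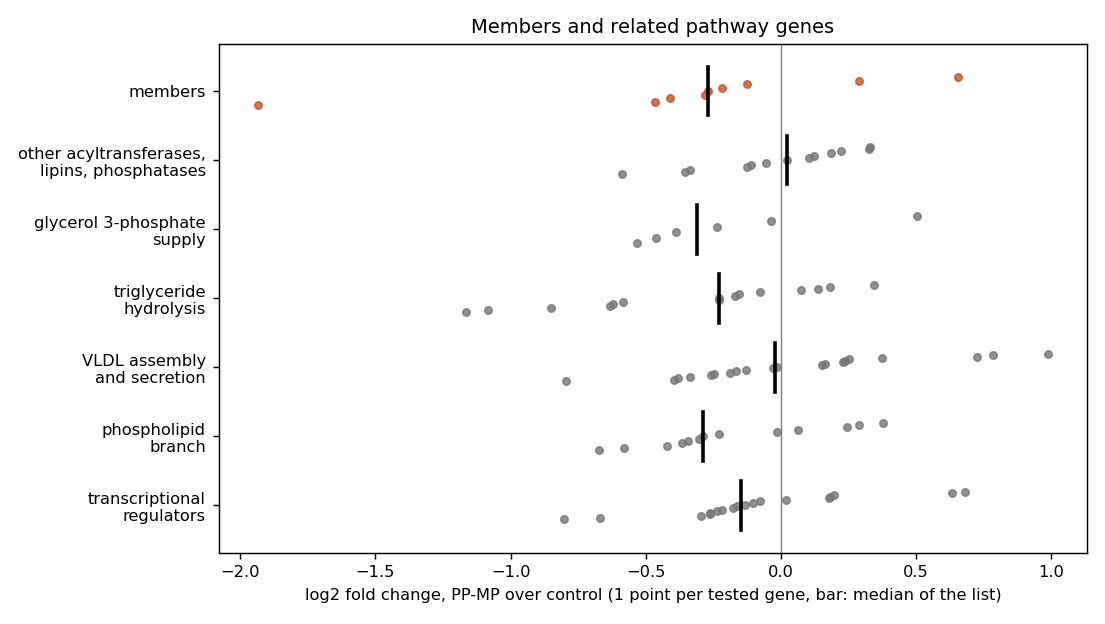
Log2 fold change, PP-MP over control, of the 9 tested members (orange) and of the tested genes of 6 related lists (gray), 1 point per gene, with the median of each list as a black bar. Medians run from −0.31 (glycerol 3-phosphate supply) to 0.02 (other acyltransferases, lipins and phosphatases), and the lowest point is Mogat1 at −1.93.

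Levels can be compared between genes only per length, and the exonic length of GENCODE M21 was used for that. As mean CPM per kilobase in PP-MP and in control, Dgat2 stood at 107 and 148, Agpat2 at 84.1 and 101, Mttp at 32.5 and 39.6, and Tm6sf2 at 13.9 and 11.4. Lpin2 followed at 7.34 and 8.54, Gpam at 6.64 and 8.81, Dgat1 at 6.20 and 6.77, Mogat1 at 1.63 and 6.22, Lpin1 at 2.32 and 1.47, and Pnpla3 at 0.0195 and 0.0541. Dgat2, Agpat2 and Mttp took the first 3 places in this order in all 6 libraries and Pnpla3 the last. Tm6sf2 was above Lpin2 in all 6, but below Mogat1 in control 3, where the per-kilobase levels were 9.23 for Tm6sf2 and 9.64 for Mogat1. Agpat2 was apart from Mttp and Mttp from Tm6sf2, with ranges over all libraries that did not overlap. Lpin2 and Gpam, Gpam and Dgat1, and Mogat1 and Lpin1 each kept their order in 4 of 6 libraries, so these neighbours did not differ beyond their spread, and Dgat1 was above Mogat1 in 5 of 6. Dgat2 was above 97.9% of the 17343 tested genes with a length and Lpin1 above 57.8%.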

How the data were processed

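RNA was measured in 6 liver libraries made from poly(A)-selected RNA with a directional kit, per the labels' protocols. The deposited values are raw read counts per gene symbol, and the 6 per-sample files equal the columns of the series table. Base calls were converted with bcl2fastq and the build was GRCm39, per the submitters' processing notes. For aligner, counting tool, strand setting and annotation, nothing was given in the sources used here. The members, lists and tests were chosen with earlier results of these data known.

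Counts were filtered with filterByExpr, scaled with TMM factors and tested on the whole table in edgeR 4.0.16 (R 4.3.3) by a two-sided quasi-likelihood F test with robust dispersions. P-values were adjusted by Benjamini-Hochberg over 18284 genes. Standard errors and intervals come from that fit. Levels are CPM after TMM scaling, and log2 CPM used a prior count of 2. Ratios used counts plus 0.5 and an exact permutation test. All members are named, and from each of 6 pathway lists the 3 genes of smallest p plus Apob, P4hb, Pnpla2, Srebf1 and Mlxipl. Others named were chosen after their values were seen. All 176 list entries matched by symbol. Depth ranged from 68357478 to 112566641 counts, and libraries of a group differed well above sampling noise (154 to 928 chi-square units per degree of freedom), so none was the same library deposited more than once. Alternatives were DESeq2 size factors, library totals, no low-count filter, a mean CPM of at least 1, the DESeq2 1.42.0 test, a replicate block and left-out libraries. The fit was also run on simulated data, where it called fewer genes than had been changed, so a gene without a call may still differ. Tables and figures were made in Python 3.11.15 (pandas 2.3.3, SciPy 1.17.1, matplotlib 3.10.9).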

Additional observations from a re-analysis of the deposited data

How the results depend on the processing

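The count of members past the threshold was 0 under every alternative run. That of pathway genes was 0 except with the DESeq2 test, which called 2 of the 85 tested, against 4.25% of all tested genes. Members lower in every PP-MP library numbered 0 to 4 over the 6 left-out libraries (Agpat2, Dgat2, Mogat1 and Mttp without control 2, where 20.1% of all tested genes were lower in this way) and 4, the same genes, without control 2 and PP-MP 1 together (24.5% of all genes). Members higher in every PP-MP library numbered 0 to 2 over the left-out libraries (15.7% to 24.6% of all genes) and 1, Tm6sf2, with library totals (24.5%). The log2 fold change of Lpin2 turned to 0.0047 with library totals and 0.073 without control 2 and PP-MP 1 together, and ran from −0.52 to 0.12 over the left-out libraries. That of Dgat1 turned to 0.099 with library totals and ran from −0.25 to 0.016 over the left-out libraries. The Pnpla3 to Pnpla2 log2 ratio difference ran from −1.43 (without control 2) to 0.44 (without control 1). The causes were not tested. The other 110 of 117 alternative fold changes of members kept direction and side of the threshold. Replicate numbers are not said to pair samples. Correlations of same-numbered deviations were −0.0662, −0.0872 and 0.0470, and 2 of 6 libraries correlated best with their own number. With the replicate block, 0 genes of the whole table were called, against 2 without it, and 0 members. For the Dgat2 to Dgat1 ratio, an exact sign-flip test over same-numbered pairs gave p = 0.25, the smallest that 3 pairs allow. With 3 libraries per group, half-widths of the 95% intervals (log2) had a median of 0.73 over all genes, which is the precision this number of libraries gave.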

Other observations

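Markers of other cells were summed per library in CPM. The enterocyte list, which holds Mogat2, the intestinal counterpart of Mogat1, was at 258 to 538 in PP-MP and 189 to 271 in control. Nearly all of it was Apoa4 and Fabp2, which the liver also expresses, and Alpi, Sis and Lct were at 0 counts in all 6 libraries. The exocrine pancreas list was at 8.04 to 15.1 in PP-MP and 10.1 to 13.4 in control, nearly all of it Cela1, with Prss2, Cpa1, Cpb1, Pnlip and Amy2b at 0 throughout. Sinusoidal endothelial markers were at 65.1 to 116 in PP-MP and 69.1 to 87.5 in control. Stellate cell markers were at 274 to 436 and 314 to 327, cholangiocyte markers at 12.4 to 22.9 and 11.98 to 26.8, lymphocyte markers at 7.77 to 49.6 and 19.7 to 54.9, and erythroid markers at 392 to 768 and 266 to 510, in PP-MP and control. The groups overlapped for each of these lists.

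Control 1, which had the lowest Lpin1 and Apob of the 6 libraries, also had the lowest Tmed5, a cargo receptor of the early secretory pathway. Tmed5 was at 130, 145 and 168 CPM in PP-MP, against 18.9, 181 and 69.0 CPM in control (log2 fold change 0.72, edgeR unadjusted p = 0.34). Tmed5 was singled out after its values were seen. Gpat2, of the acyltransferase list, was also lowest in control 1, at 0.0689 CPM. The share of all tested genes that were lowest in control 1 was not counted.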
